A study of Mus musculus with 24 samples.

Results

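The cell cycle and proliferation genes described here are 37 mouse genes chosen by name for their role in G1, S phase or mitosis, out of 55416 gene identifiers in a table of raw read counts from the kidney inner medulla. They comprise 5 genes of G1 progression (Ccnd1, Ccnd2, Ccnd3, Cdk4 and Cdk6) and 5 of entry into S phase (Ccne1, Ccne2, Cdk2, E2f1 and Cdc6). A further 10 act in DNA synthesis (Mcm2 to Mcm7, Pcna, Tyms, Rrm1 and Rrm2), and 17 act in G2 and mitosis (Mki67, Top2a, Ccna2, Ccnb1, Ccnb2, Cdk1, Cdc20, Plk1, Aurka, Aurkb, Bub1, Bub1b, Birc5, Cenpe, Cenpf, Kif11 and Tpx2). All 37 were found in the table. A filter on low counts left 34 of them among the 18005 genes tested. Ccnb1, Aurkb and Cenpf had too few reads to pass this filter and were not in the main test.

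The study measured polyadenylated RNA in the inner medulla of C57BL/6 mice, 72 h after 1 intraperitoneal injection with a volume of 100 µl, which held either saline or 15 mg/kg cisplatin. This platinum compound crosslinks DNA and damages the renal tubule. The mice were 9 to 10 weeks old, and no genetic alteration is named in any group. There were 6 libraries from males given saline, 6 from males given cisplatin, 7 from females given saline and 5 from females given cisplatin, each numbered within its group. The labels do not say that each library is 1 mouse, so p-values measure the spread between libraries.

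Proliferating cells pass from G1 to S phase when D-type cyclins with CDK4 or CDK6, and then E-type cyclins with CDK2, release E2F factors from the retinoblastoma family. E2F targets include the MCM helicase, PCNA and the enzymes that make nucleotides, whereas genes needed for mitosis are expressed later, in G2 and M. The adult kidney tubule divides rarely, and after toxic injury surviving tubule cells can re-enter the cycle or stop in it, often with induction of the CDK inhibitor p21, the product of Cdkn1a. Because these are bulk tissue samples, fewer cells of a type and less RNA per cell cannot be told apart.

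In promoter sequence, which the choice of members did not use, CHR and E2F matches differed between S phase and mitosis genes, whereas the CCAAT box was frequent in both. These elements are known from such genes, so the matches are no independent support for the division. RefSeq promoter windows (build GRCm38.p6, 250 bases before to 50 bases after the start) were matched by symbol for 30 of the 37 members, giving 32 windows. The cell cycle gene homology region, CHR, searched as TTTGAA or TTCGAA on both strands, is an element of many mitosis genes. It was present in 11 of 14 windows of G2 and mitosis genes (78.6%), in 2 of 10 windows of S phase genes (20.0%) and in 19.2% of all 32851 windows. The CCAAT box, searched as CCAAT on both strands, was present in 13 of 14 windows of G2 and mitosis genes, in 9 of 10 windows of S phase genes and in 37.4% of all windows. E2F sites, searched as TTTCCCGC, TTTCGCGC or TTTGGCGC on both strands, were present in 4 of 10 S phase windows, in 2 of 4 G1/S windows, in 1 of 14 G2 and mitosis windows and in 1.84% of all windows. Within the member windows, E2F matches overlapped each other in Mcm5 and Mcm6, and an E2F match overlapped a CCAAT box in Mcm7. The 250 bases before the start are shown for 4 genes on which the results below turn or which contrast with them: Top2a, Ccnb2 and Cdk1 for mitosis and Mcm6 for S phase. They lie at chr11:99024190-99024439, chr9:70421555-70421804, chr10:69352913-69353162 and chr1:128359706-128359955, all on the minus strand, and are written 5′ to 3′ along the gene with matches to the motifs in capitals.
Top2a: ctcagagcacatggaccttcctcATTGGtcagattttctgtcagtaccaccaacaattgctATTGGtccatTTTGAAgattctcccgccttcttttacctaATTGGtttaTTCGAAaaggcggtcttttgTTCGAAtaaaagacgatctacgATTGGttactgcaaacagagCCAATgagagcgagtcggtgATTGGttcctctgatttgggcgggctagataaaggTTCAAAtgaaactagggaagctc
Ccnb2: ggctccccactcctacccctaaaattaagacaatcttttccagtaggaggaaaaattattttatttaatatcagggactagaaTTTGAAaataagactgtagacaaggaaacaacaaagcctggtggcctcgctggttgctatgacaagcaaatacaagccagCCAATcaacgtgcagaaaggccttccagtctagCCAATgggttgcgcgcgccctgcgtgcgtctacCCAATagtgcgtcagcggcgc
Cdk1: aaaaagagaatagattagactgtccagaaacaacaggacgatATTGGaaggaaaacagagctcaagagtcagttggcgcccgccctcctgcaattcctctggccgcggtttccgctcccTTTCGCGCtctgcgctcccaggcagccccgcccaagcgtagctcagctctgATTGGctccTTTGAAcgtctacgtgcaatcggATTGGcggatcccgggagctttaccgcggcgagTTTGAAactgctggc
Mcm6: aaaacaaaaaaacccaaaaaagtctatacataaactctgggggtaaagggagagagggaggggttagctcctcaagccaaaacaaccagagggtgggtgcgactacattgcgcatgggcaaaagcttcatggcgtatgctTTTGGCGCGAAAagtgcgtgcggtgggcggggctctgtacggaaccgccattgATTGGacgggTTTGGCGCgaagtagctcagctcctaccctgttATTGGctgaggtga
Top2a carried 4 CHR and 6 CCAAT matches in this stretch, Ccnb2 carried 1 CHR and 3 CCAAT, Cdk1 carried 2 CHR, 3 CCAAT and 1 E2F match, and Mcm6 carried E2F and CCAAT matches but no CHR. A match is a description of the letters and was not tested for binding.

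Libraries held 18084242 to 27279102 counts. Values are given as CPM, counts scaled to a common library total after TMM correction for composition, so 3 counts in a library correspond to 0.106 to 0.166 CPM. Collecting duct markers, led by Aqp2 and the urea transporter Slc14a2, summed to 5560 to 11700 CPM across the 4 groups, so the defining duct genes of this zone were present in every library. Thick ascending limb markers, led by Umod, summed to 1180 to 14100 CPM, and proximal tubule markers to 65.5 to 1060 CPM, so neighbouring segments were present in every library in varying amounts. The tubular injury marker Lcn2 lay between 49.4 and 129 CPM in saline libraries, between 213 and 6590 CPM in males given cisplatin, and at 546, 111, 122, 3530 and 2100 CPM in females given cisplatin. The low value of 213 CPM was that of male cisplatin 6, and 2 of the 5 treated females were within the saline range.

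One library stood apart. Female saline 1 had a G2 and mitosis score of 1.80, where the score is the mean of log2(CPM + 0.5) over the 14 tested genes of that class. The other 6 female saline libraries had 0.48 to 1.06, male saline 0.56 to 0.91, male cisplatin 0.41 to 0.76 and female cisplatin 0.48 to 0.77. It was singled out for this score, so its high levels of these genes are a description with no test. Fold changes in females, counts of calls and unadjusted-p counts that rest on female saline libraries are given with and without it. In the mean of the sexes some fold changes are given only with it, as are all DESeq2 results. The ranges of female saline levels include it.

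**Figure D1:**
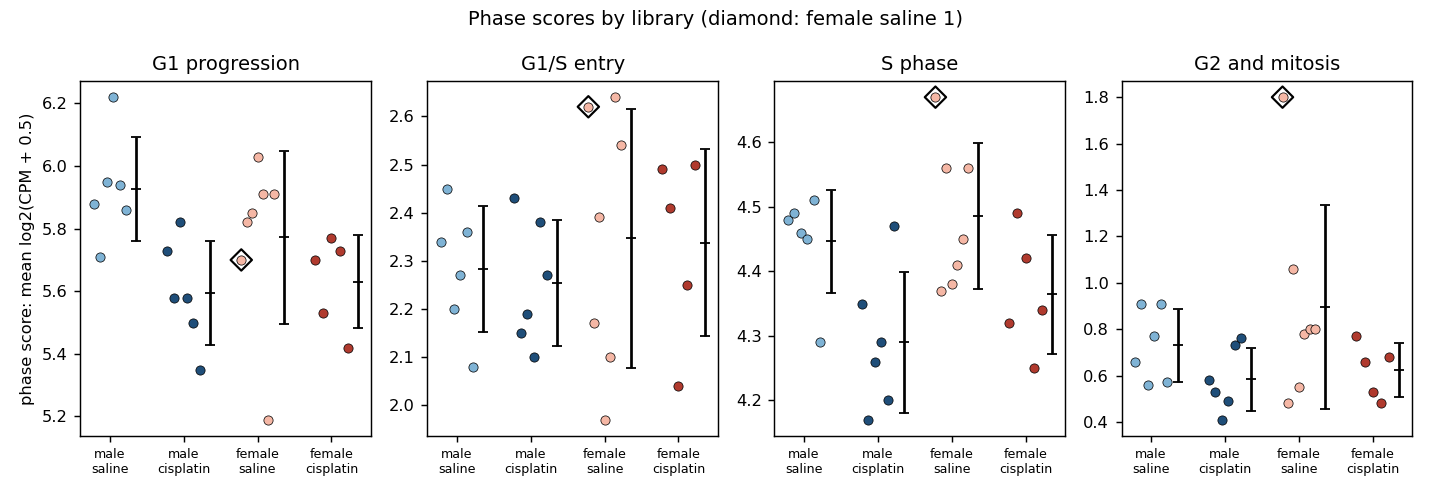
Phase scores (mean of log2(CPM + 0.5) over the tested genes of each phase) for the 24 libraries, grouped by sex and treatment. Points are libraries, bars to the right are mean ± SD, axes do not start at 0, and the diamond marks female saline 1, at 1.80 for G2 and mitosis.

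Under saline, median levels of the members were highest for G1 and lowest for G2 and mitosis, and the ranges of neighbouring phases overlapped. Over the 12 saline libraries other than female saline 1, mean levels were 20.0 to 120 CPM for the 5 G1 genes, 1.61 to 25.0 CPM for G1/S entry, 5.57 to 77.0 CPM for S phase and 0.188 to 5.93 CPM for G2 and mitosis. Per kilobase of exon, Pcna, the sliding clamp of DNA polymerase, ranked first at 32.1 CPM per kb, followed by Cdk4 at 26.9, Ccnd1 at 25.1, Ccnd3 at 13.7 and Mcm7 at 11.3. Ccnd1 varied most among these, with 118 ± 59.2 CPM (SD, n = 12), so its place next to Cdk4, with 87.3 ± 6.32 CPM (SD, n = 12), was within its spread. The lowest levels per kb were those of Cenpf at 0.0207, Ccnb1 at 0.0446, Bub1 at 0.062, Top2a at 0.0775 and Mki67 at 0.08. The highest mitosis gene was Bub1b, a spindle checkpoint kinase, at 1.39 CPM per kb. The median of the 17 mitosis genes was 0.96 CPM, above the level of 3 counts. The lowest of them in CPM was Ccnb1. Ccnb1 encodes the cyclin partner of CDK1 and lay at 0.0385 to 0.75 CPM in 11 of these 12 libraries and had 0 counts in the other, male saline 6, which allows up to 3 counts.

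**Figure D2:**
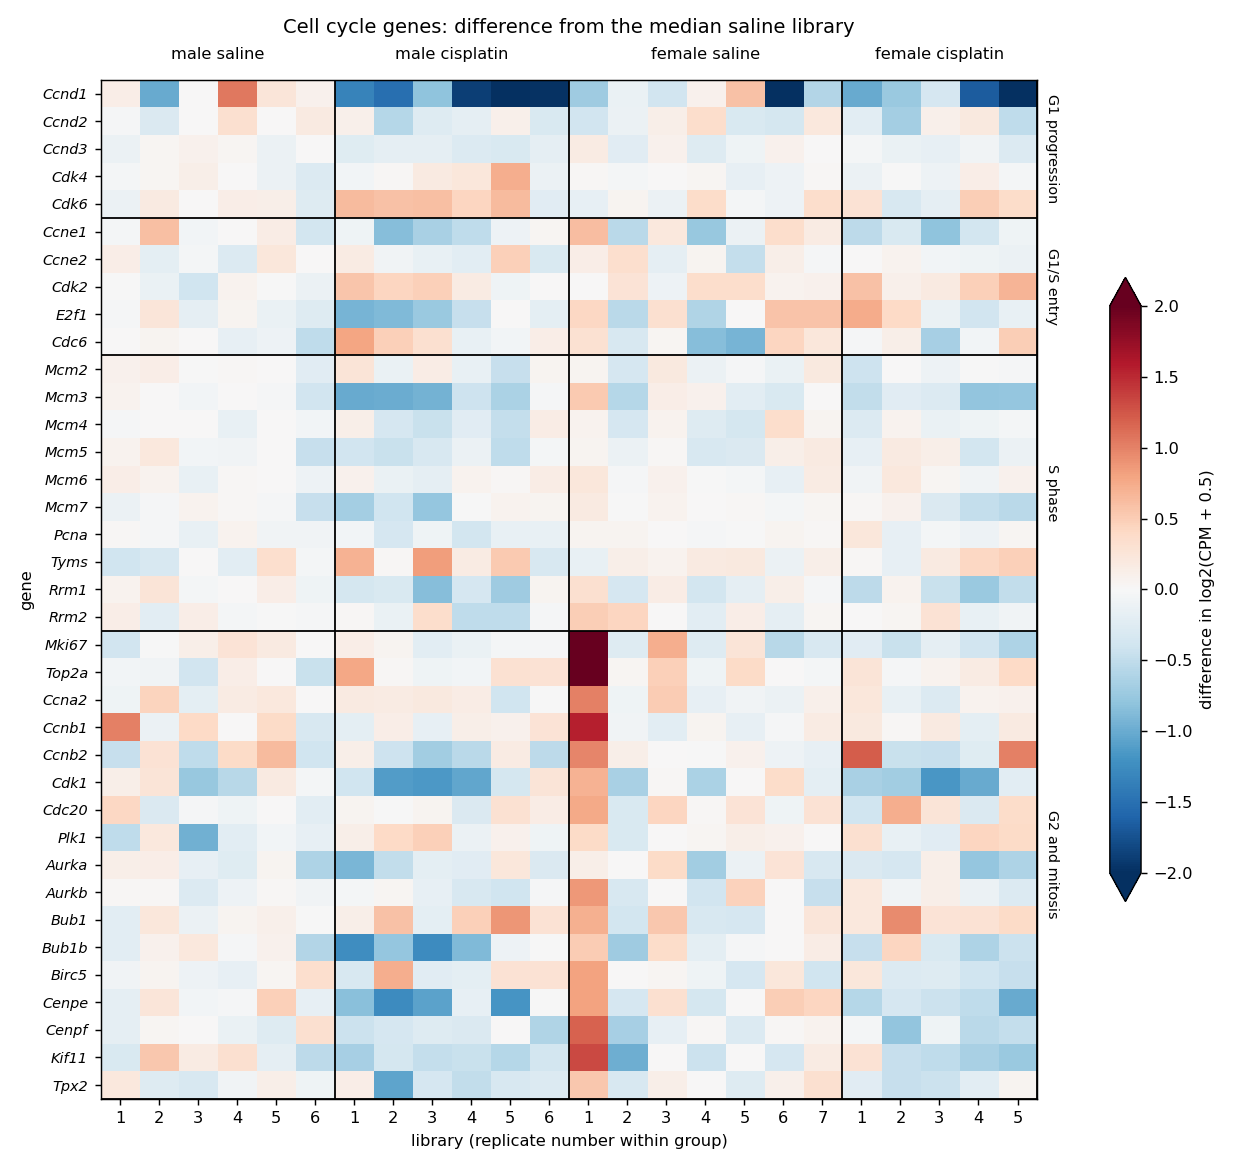
Difference of log2(CPM + 0.5) from the median of the 13 saline libraries, for 37 genes in rows by phase and 24 libraries in columns by group, with colours capped at 2 in either direction. Ccnd1 is lowest in male cisplatin 5 at 12.2 CPM and female saline 6 at 13.0 CPM, and female saline 1 is high across the G2 and mitosis rows.

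In males, cisplatin was accompanied by lower Ccnd1, Mcm3, Rrm1, Cenpe and Ccnd3 and by higher Cdk6 and Cdk2, by edgeR's quasi-likelihood test with Benjamini-Hochberg adjusted p under 0.05 over all 18005 genes. These 7 are 20.6% of the 34 tested members, beside 20.7% of all genes called in the same comparison, so the share is that of the background. Of all genes, 13.2% were called higher and 7.54% lower, against 2 and 5 of the 34 members. The median log2 fold change was -0.15 over the members and 0.02 over all genes tested, and 12 members had an unadjusted p under 0.05. By phase, the calls were 1 higher and 2 lower among 5 G1 genes, 1 higher among 5 G1/S genes, 2 lower among 10 S phase genes and 1 lower among 14 tested G2 and mitosis genes.

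The G1 genes moved in opposite directions. Ccnd1 encodes cyclin D1, the D-type cyclin that couples growth signals to CDK4 and CDK6. It had a lowest, median and highest level of 58.9, 128 and 249 CPM in male saline and 12.2, 36.7 and 67.9 CPM in male cisplatin. The groups overlapped only through male saline 2, which at 58.9 CPM lay below male cisplatin 3. The log2 fold change was -1.84 ± 0.44 (SE), with an edgeR adjusted p of 0.00663. Ccnd3, encoding cyclin D3, was at 113, 125 and 131 CPM in male saline and 99.9, 107 and 109 CPM in male cisplatin. It was the single member whose male groups did not overlap, where 2.48% of all genes were separated in that direction, although its log2 fold change was a small -0.21 ± 0.07 (SE, edgeR adjusted p = 0.042). Cdk6, a kinase partner of the D cyclins, was higher, at 24.3, 30.3 and 32.8 CPM in male saline and 24.7, 43.9 and 45.3 CPM in male cisplatin. All treated males except male cisplatin 6 were above every saline male, and the log2 fold change was 0.46 ± 0.15 (SE, edgeR adjusted p = 0.0348). Ccnd2 (-0.22 ± 0.16) and Cdk4 (0.24 ± 0.11) did not pass, with edgeR adjusted p of 0.355 and 0.111.

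**Figure D3:**
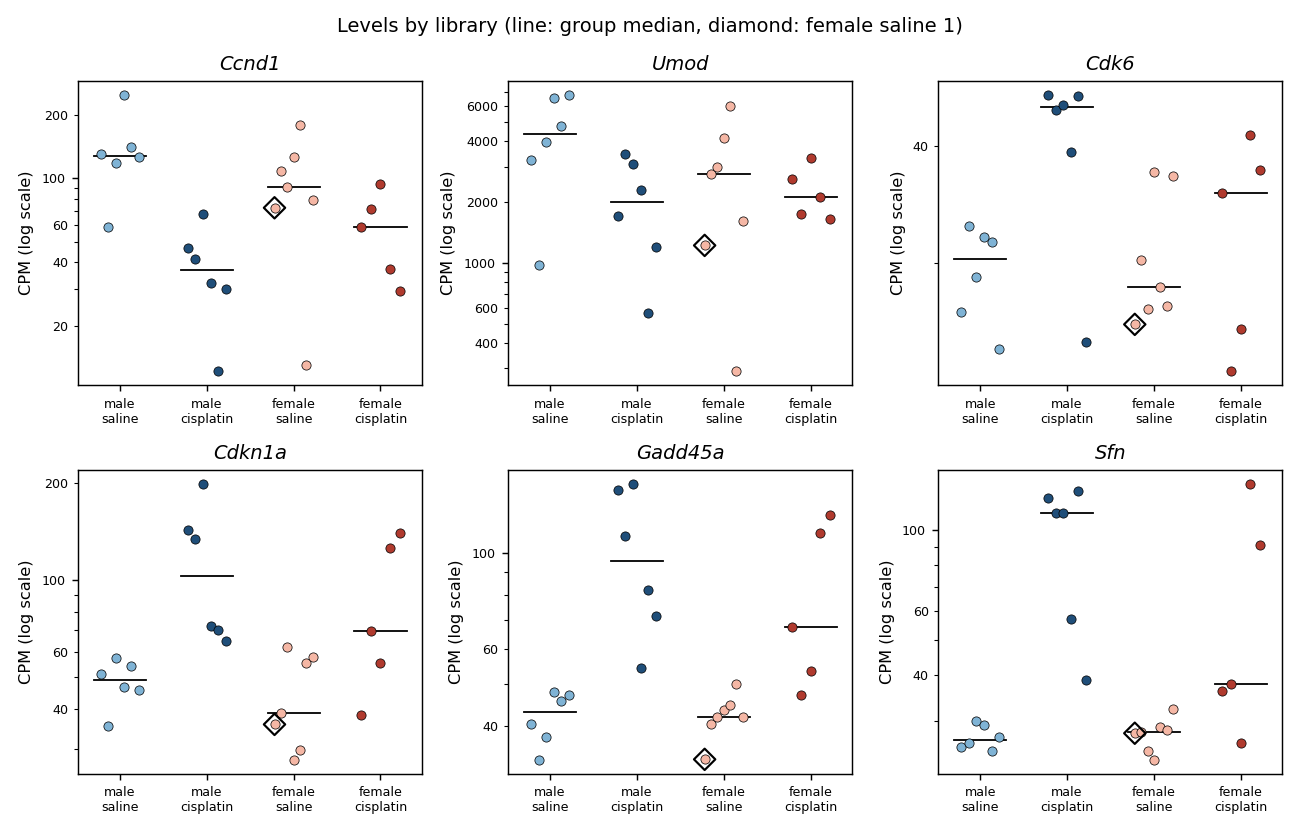
Levels in CPM on a log scale for 6 genes in the 24 libraries by group, where lines are group medians and the diamond is female saline 1. Ccnd1 and Umod are both lowest among saline libraries in female saline 6, at 13.0 and 290 CPM, and Sfn is at 38.8 CPM or above in all treated males.

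Low Ccnd1 coincided with low Umod, a thick ascending limb marker, in libraries picked here for their low Ccnd1. An association over all libraries was not tested. The lowest Ccnd1 levels among all 13 saline libraries, 13.0 CPM in female saline 6 and 58.9 CPM in male saline 2, were in the libraries with the lowest Umod, at 290 and 974 CPM. In male cisplatin 5, the treated male with the least Ccnd1 (12.2 CPM), Umod was also the lowest of its group, at 563 CPM. With a tubule marker score as a covariate, built from proximal tubule and thick ascending limb genes, the male Ccnd1 log2 fold change was -1.38 in place of -1.84, and the edgeR adjusted p was 0.0618. Leaving out female saline 1 as well gave -1.39 (edgeR adjusted p = 0.0683). The call held in the other 30 of 32 alternative fits. Male cisplatin 2 had the highest Umod of its group, 3460 CPM, within the male saline range. Its tubule marker score of 4.254 was below that of every saline library, of which female saline 6 was lowest at 4.532. Its Ccnd1 of 41.3 CPM was below every saline male. Over male cisplatin 1 to 6 the scores were 4.056, 4.254, 5.649, 6.245, 5.889 and 5.237, beside 5.343 to 6.636 in male saline. Ccnd1 in the same order was 46.9, 41.3, 67.9, 32.0, 12.2 and 30.0 CPM. Among the 13 saline libraries, a level below 58.9 CPM occurred only in female saline 6. The part of tissue composition in the male difference was not tested.

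Among G1/S genes, Cdk2 was called in males. It encodes the kinase that works with cyclins E and A. Its levels were 18.2, 23.1 and 25.3 CPM in male saline and 22.6, 29.9 and 35.5 CPM in male cisplatin, and the groups overlapped in male cisplatin 5 and 6. The log2 fold change was 0.37 ± 0.13 (SE, edgeR adjusted p = 0.0376). Its E-type cyclin partners did not pass: Ccne1 had a log2 fold change of -0.53 ± 0.29 and Ccne2 of 0.02 ± 0.16, with edgeR adjusted p of 0.188 and 0.934. E2f1, the transcription factor that drives S phase genes, had the largest difference of the phase in males, -0.64 ± 0.32 (SE), without passing (edgeR adjusted p = 0.147). Its level was 1.21, 1.43 and 1.92 CPM in male saline and 0.572, 0.853 and 1.55 CPM in male cisplatin. The replication licensing factor Cdc6 had 0.43 ± 0.25 (SE, edgeR adjusted p = 0.212).

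S phase genes differed by little. Mcm3, a subunit of the replicative helicase, was at 7.87, 10.3 and 10.9 CPM in male saline and 4.91, 5.83 and 10.2 CPM in male cisplatin. The log2 fold change was -0.60 ± 0.19 (SE, edgeR adjusted p = 0.0294), and only male cisplatin 6, at 10.2 CPM, lay inside the saline range. The other 5 MCM subunits did not pass, with log2 fold changes from -0.26 (Mcm5) to 0.01 (Mcm6). Rrm1, the large subunit of ribonucleotide reductase, was at 40.9, 44.3 and 52.0 CPM in male saline and 23.9, 34.0 and 45.2 CPM in male cisplatin. It was lower by a log2 fold change of -0.45 ± 0.15 (SE, edgeR adjusted p = 0.0346), and only male cisplatin 6 lay inside the saline range. Its small subunit Rrm2 had -0.11 ± 0.16 (edgeR adjusted p = 0.646). Pcna had -0.15 ± 0.07 and Tyms, thymidylate synthase, 0.49 ± 0.19, with edgeR adjusted p of 0.119 and 0.0611.

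Of the mitosis genes, Cenpe alone was called in males. It encodes a kinesin of the kinetochore and was at 1.34, 1.53 and 2.41 CPM in male saline and 0.374, 0.583 and 1.57 CPM in male cisplatin. Male cisplatin 4 and 6, at 1.37 and 1.57 CPM, lay in the saline range and the other 4 treated males were below it. The log2 fold change was -1.01 ± 0.33 (SE, edgeR adjusted p = 0.0346). The proliferation marker Mki67 did not differ beyond its spread (-0.13 ± 0.54, edgeR adjusted p = 0.886), with 0.482 to 1.05 CPM in male saline and 0.608 to 0.906 CPM in male cisplatin. Bub1 (0.89 ± 0.46) and Bub1b (-0.63 ± 0.26), kinases of the same checkpoint, had opposite signs and neither passed, with edgeR adjusted p of 0.167 and 0.0832.

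Most male calls depended on single libraries. Without male cisplatin 2 or without male cisplatin 3, Ccnd1 was the only member called. Without male cisplatin 1, Ccnd1 and Rrm1 were called. Of the 7 calls, 3 remained without male saline 1, 2 or 4 and 4 without male saline 3, 5 or 6, where leaving out male saline 5 added higher Tyms. Without male cisplatin 5, 3 remained and lower Bub1b was added, and without male cisplatin 4, 6 remained. Without male cisplatin 6, the treated male with the least Lcn2, 11 members were called: the same 7, together with lower Bub1b and Cdk1 and higher Cdk4 and Tyms. Cdk1 then had a log2 fold change of -1.20 (edgeR adjusted p = 0.0465). Ccnd1 kept its call in all 24 fits that left out 1 library.

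In females, none of the 34 tested members passed, by edgeR's quasi-likelihood test or by DESeq2, where edgeR called 0.272% of all genes, 0.2% higher and 0.0722% lower. The groups overlapped for all 34, where 0.511% of all genes were separated upward and 0.339% downward, or 0.572% and 0.422% without female saline 1. Unadjusted p was under 0.05 for 7 members, and for 5 without female saline 1. The median log2 fold change was -0.10, and -0.05 without that library. Ccnd1 was at 13.0, 90.8 and 179 CPM in female saline and at 59.1, 71.3, 94.4, 37.2 and 29.3 CPM in female cisplatin. All treated females lay inside the saline range, but its lower end was female saline 6 alone. The other female saline libraries were at 72.6 CPM or above, and of the treated females only number 3, at 94.4 CPM, reached that. The log2 fold change was -0.71 ± 0.44 (SE, edgeR adjusted p = 0.444), and -0.77 without female saline 1. Mcm3 was at 6.82, 10.5 and 15.1 CPM in female saline and at 7.21, 8.84, 8.55, 5.84 and 5.90 CPM in female cisplatin. Its log2 fold change was -0.51 ± 0.19 (SE, edgeR adjusted p = 0.255), and -0.39 without female saline 1. Cenpe was at 1.14, 2.12 and 3.14 CPM in female saline and at 0.906, 1.15, 1.06, 0.973 and 0.544 CPM in female cisplatin. The treated females were at the bottom of the saline range or below it, with a log2 fold change of -1.10 ± 0.34 (SE, edgeR adjusted p = 0.171) and -0.96 without female saline 1.

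The largest log2 fold changes in females were those of Mki67, Top2a, Cdk1 and Cenpe, all genes of mitosis, and none passed. They differed in how far they rested on female saline 1. For Mki67 the log2 fold change was -1.78 ± 0.57 (SE, edgeR adjusted p = 0.179), and -0.65 without that library (adjusted p = 0.431). For Top2a, encoding the topoisomerase that untangles chromosomes, it was -1.24 ± 0.57 (SE, edgeR adjusted p = 0.314), and 0.05 without it (adjusted p = 0.954). For Cdk1 it was -1.20 ± 0.47 (SE, edgeR adjusted p = 0.259) and -0.98 without it, so that Cdk1, like Cenpe, kept most of its difference. Kif11, a spindle kinesin, had -0.76, and -0.24 without that library.

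**Figure D4:**
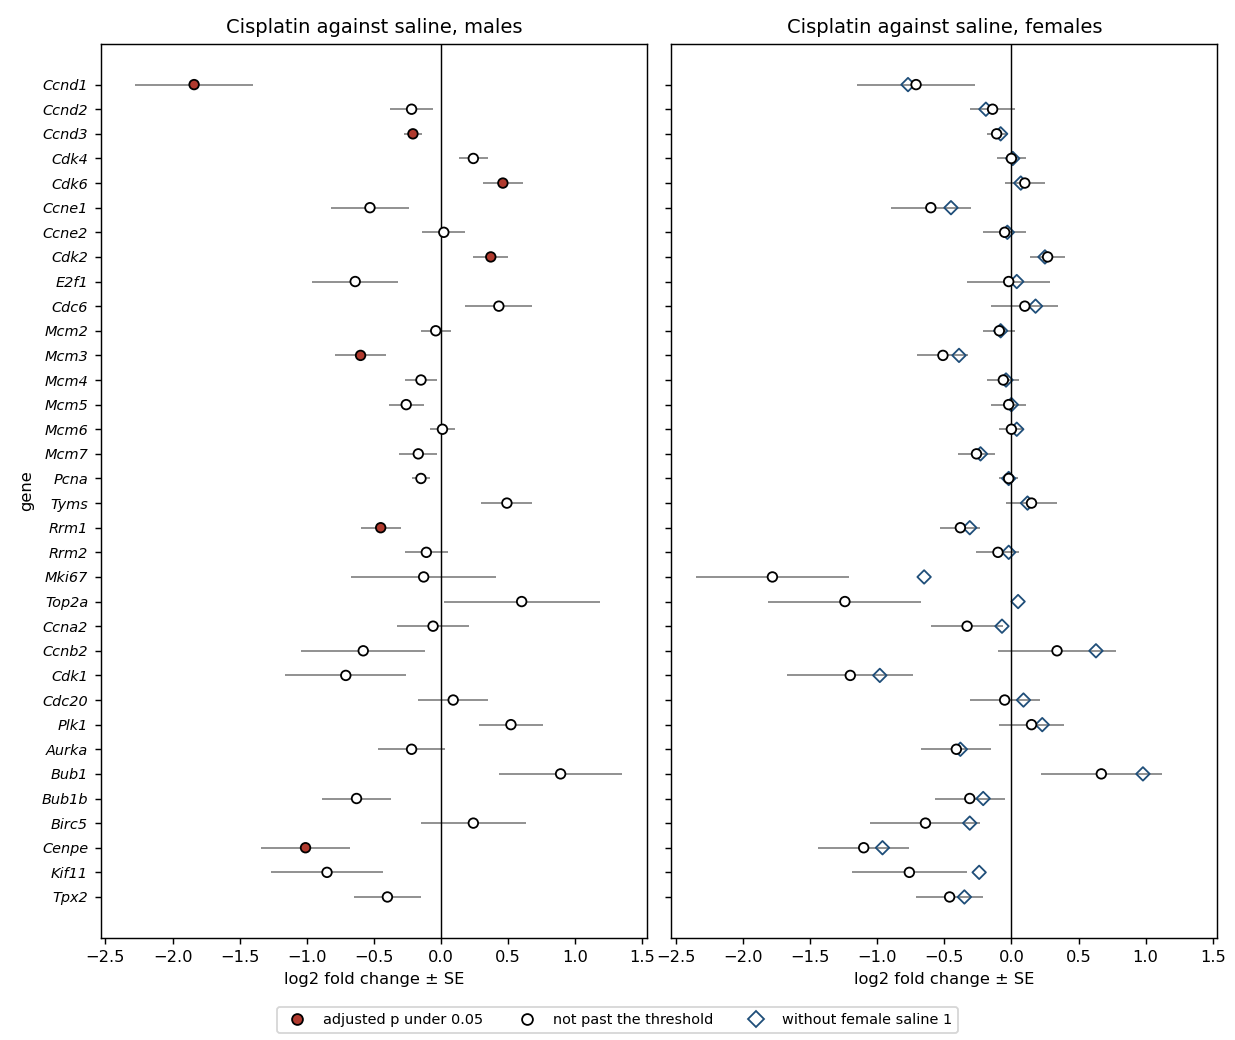
Log2 fold change of cisplatin against saline ± SE for the 34 tested members, in males and females, where filled points passed edgeR's adjusted p of 0.05. Open diamonds in the female panel are the fits without female saline 1, in which Mki67 moves from -1.78 to -0.65 and Top2a from -1.24 to 0.05.

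No member passed the test between sexes. The cisplatin effect differed between females and males for 0 of 34 members by edgeR's quasi-likelihood test and by DESeq2, with 2 at an unadjusted p under 0.05 (Mki67 and Top2a) and 0 without female saline 1. In that comparison 0.0% of all genes were called. Female against male levels differed for 0 of 34 members under saline (2 at an unadjusted p under 0.05, and 1 without female saline 1, background 0.189%) and for 0 under cisplatin (3 at an unadjusted p under 0.05, background 0.156%), by both tools. The 28 genes behind the last background became 12 to 120 on leaving out 1 library, the most without female cisplatin 4. Members called in males and not in females are thus not shown to respond differently: for Ccnd1 the difference of the log2 fold changes was 1.13 ± 0.60 (SE, edgeR adjusted p = 0.943), and 1.07 without female saline 1.

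Averaged over the sexes, 9 of 34 members were called (26.5%), beside 27.1% of all genes. Cenpe (-1.06 ± 0.24), Ccnd1 (-1.28 ± 0.31), Mcm3 (-0.55 ± 0.14), Rrm1 (-0.41 ± 0.11) and Ccnd3 (-0.16 ± 0.05) were lower and Cdk2 (0.32 ± 0.09) was higher, as log2 fold changes ± SE, with edgeR adjusted p from 0.00305 to 0.0246. Those 6 kept their calls without female saline 1, where 7 of 34 members were called, 2 higher and 5 lower. Cdk1, Ccne1 and Kif11 were also called lower, and these calls were less stable: they held in 23, 13 and 9 of 31 alternative fits. All 3 ended on leaving out any 1 of male saline 2 or 5, male cisplatin 2 or 3, female saline 1, and female cisplatin 3 or 4. Cdk1, the mitotic kinase, was at 0.448, 1.14 and 1.41 CPM in male saline and 0.221, 0.499 and 1.42 CPM in male cisplatin. In females it was at 0.525, 1.10 and 2.09 CPM under saline and 0.518, 0.488, 0.211, 0.292 and 0.878 CPM under cisplatin. Groups overlapped in both sexes. Its log2 fold change of -0.96 ± 0.32 (SE, edgeR adjusted p = 0.0316) became -0.84 without female saline 1 (adjusted p = 0.0563). Ccne1, cyclin E1, went from -0.57 ± 0.21 (edgeR adjusted p = 0.045) to -0.49 (adjusted p = 0.0786), and Kif11 from -0.80 ± 0.30 (edgeR adjusted p = 0.0497) to -0.54 (adjusted p = 0.103). DESeq2 called these 9 and also lower Bub1b, Mki67, Tpx2 and Cenpf. For each of these added genes female saline 1 was the highest of all 24 libraries, and DESeq2 was not run without it. Cenpf, a kinetochore protein outside the main test, had -1.12 by DESeq2 (adjusted p = 0.0466) and -1.10 by edgeR with no filter (adjusted p = 0.0973). Bub1 was gained as a higher member without female saline 1, at 0.93 (edgeR adjusted p = 0.032) from 0.78 (adjusted p = 0.0721). Leaving out single libraries gave 6 to 12 calls, and Ccnd1, Mcm3, Rrm1, Cenpe and Cdk2 were called in all of those 24 fits.

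Regulators of the cycle outside the 37 members were taken from 6 lists. These lists were chosen with earlier results of these data known, so their shares of calls are a description. Among 6 tested CDK inhibitors, 1 was called higher in males, Cdkn1a, which encodes p21. It was at 35.3, 49.0 and 57.4 CPM in male saline and 65.0, 103 and 199 CPM in male cisplatin, with no overlap between groups, where 3.45% of all genes were separated upward. The log2 fold change was 1.23 ± 0.30 (SE, edgeR adjusted p = 0.00791), and the call was lost only with the tubule marker covariate, where it was 0.90 with female saline 1 (edgeR adjusted p = 0.0503) and without it (adjusted p = 0.0565). In females Cdkn1a was at 27.8, 38.9 and 62.2 CPM under saline and at 38.2, 69.6, 55.6, 126 and 140 CPM under cisplatin, and did not pass (0.96 ± 0.30, edgeR adjusted p = 0.171, and 0.92 without female saline 1). In the mean of the sexes it was called in all 31 alternative fits. The treated females with the highest Lcn2, numbers 4 and 5, were also those with the highest Cdkn1a.

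Checkpoint and G2 regulators had 5 of 15 called higher and 1 lower in males, where 13.2% of all genes were called higher and 7.54% lower; these 2 shares are the background of each male count that follows. Sfn, encoding 14-3-3 sigma, which holds CDK1 and cyclin B in the cytoplasm, was at 24.9, 26.7 and 30.0 CPM in male saline and 38.8, 111 and 128 CPM in male cisplatin, without overlap. Its log2 fold change was 1.80 ± 0.31 (SE, edgeR adjusted p = 0.000869). The stress gene Gadd45a was at 33.4, 42.9 and 47.8 CPM in male saline and 54.3, 95.5 and 144 CPM in male cisplatin, again without overlap, with 1.25 ± 0.22 (SE, edgeR adjusted p = 0.00111). Gadd45g rose by 1.88 ± 0.44 and Ccng2, cyclin G2, had -0.53 ± 0.12, with edgeR adjusted p of 0.00598 and 0.00455. These 4 calls held in all 32 alternative fits. Pkmyt1 and Gtse1 were the remaining higher calls. The median log2 fold change of the list was 0.23, beside 0.02 over all genes.

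The retinoblastoma and E2F list had 4 of 16 called lower (Rb1, Rbl2, Tfdp2 and Lin52) and 1 higher (E2f4) in males, beside 7.54% lower and 13.2% higher of all genes. Rb1, the retinoblastoma protein, was at 68.8, 72.3 and 74.8 CPM in male saline and 39.2, 54.4 and 71.6 CPM in male cisplatin, with overlap only at the top of the treated range and a log2 fold change of -0.40 ± 0.10 (SE, edgeR adjusted p = 0.0102). Rbl2 and Tfdp2 had log2 fold changes of -0.63 and -0.85, and the E2f4 call of 0.21 held in 5 of 32 alternative fits and that of Lin52 in 19. In the MYC list 4 of 9 were higher (Mycl, Mxd4, Myc and Mnt), beside 13.2% of all genes, with Mycl at 1.03 ± 0.25 and Myc at 0.85 ± 0.24 (SE, edgeR adjusted p = 0.00731 and 0.0161). Myc promotes entry into the cycle, whereas Mxd4 and Mnt oppose it. The Mnt call held in 12 of 32 alternative fits, and without female saline 1 both Mnt and E2f4 lost theirs.

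Further replication genes did not follow Mcm3 and Rrm1. Of 31 origin licensing and replication genes, 7 were higher and 1 lower in males: Pold1, Tk1, Rfc5, Rfc2, Gins1, Gins2 and Uhrf1 rose and Rpa1 fell, beside 13.2% higher and 7.54% lower of all genes. Pold1, the catalytic subunit of DNA polymerase delta, also acts in DNA repair synthesis. It was at 28.4, 31.9 and 36.4 CPM in male saline and 37.2, 41.7 and 58.5 CPM in male cisplatin, without overlap (0.49 ± 0.11, edgeR adjusted p = 0.00424). Tk1, thymidine kinase, had 0.75 ± 0.20 (SE, edgeR adjusted p = 0.0107). The list's median was at -0.00, beside 0.02 over all genes. Of 30 further mitosis genes tested, 2 were higher (Cks1b and Kif23) and 3 lower (Smc2, Ect2 and Kif2c), beside the same shares. Smc2, a condensin subunit, was at 14.4, 16.2 and 18.9 CPM in male saline and 3.59, 7.22 and 12.9 CPM in male cisplatin, without overlap (-1.04 ± 0.27, edgeR adjusted p = 0.0102).

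In females, 0 genes of these 6 lists passed edgeR's test, with unadjusted p under 0.05 for 2 CDK inhibitors, 3 retinoblastoma and E2F genes, 5 replication genes, 6 mitosis genes, 4 checkpoint genes and 2 MYC genes. Without female saline 1 again 0 passed, and these counts were 2, 2, 4, 5, 5 and 2. DESeq2 called Gadd45a and Sfn in females and 0 genes of the other 5 lists. Averaged over the sexes, the calls higher and lower were 2 and 0 for CDK inhibitors, 1 and 3 for the retinoblastoma and E2F list, 7 and 1 for replication, 3 and 4 for mitosis, 7 and 2 for checkpoint regulators, and 4 and 1 for MYC. Each of these counts was the same without female saline 1, and 16.2% of all genes were called higher and 10.9% lower.

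Markers of other cell types moved with cisplatin in males beside these genes. The counts stand beside 7.54% of all genes called lower and 13.2% called higher. Endothelial markers were lower in 4 of 6, and their sum ranged from 1860 to 2290 CPM in male saline and from 603 to 2270 CPM in male cisplatin. Fibroblast and matrix markers were lower in 5 of 7, with sums of 519 to 637 CPM and 105 to 457 CPM. Erythroid markers were lower in 5 of 7 tested, with sums of 310 to 523 CPM and 86.1 to 182 CPM, and smooth muscle markers in 2 of 3 tested, with sums of 22.1 to 28.2 CPM and 9.20 to 21.5 CPM. Thick ascending limb markers were lower in 1 of 6 (Egf), with sums of 2780 to 14100 CPM and 2030 to 8430 CPM and medians of 9520 and 4830 CPM. Intercalated cell markers were lower in 2 of 6 (Slc4a1 and Insrr), with sums of 227 to 524 CPM and 147 to 350 CPM. Proximal tubule markers were called in 0 of 10, and all 10 had log2 fold changes below 0. Collecting duct markers had 1 higher (Scnn1b) and 2 lower (Aqp3 and Aqp4) of 9, and thin limb markers 1 higher (Cldn4) of 5. Tubular injury markers were higher in 5 of 7 tested, with sums of 1520 to 1910 CPM and 2310 to 24500 CPM. Urothelial markers were higher in 3 of 7, with sums of 77.5 to 104 CPM and 68.0 to 255 CPM. Macrophage markers were split, 2 higher (Cd14 and Cd68) and 2 lower (Adgre1 and Mrc1) of 10 tested, with sums of 66.2 to 125 CPM and 94.1 to 230 CPM. No defining marker of these lists was at 0 throughout either male group. Their part in the differences of the cell cycle genes was not tested. With the tubule marker covariate, Rrm1 was the 1 member called in males, and Rrm1, Mcm3, Cenpe, Ccnd3, Cdk1 and Ccne1 were called in the mean of the sexes.

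Female saline 1, set apart for its score over the mitosis genes, is described here without a test. Of the 34 tested members, 20 were highest there among the 7 female saline libraries (58.8%), where 12.9% of all genes were. The members' share includes the mitosis genes that set this library apart, so it partly restates that choice. By phase, 16 of 17 G2 and mitosis genes were highest of 7, and 13 were highest of all 24 libraries, against 5 of 10 S phase genes, 1 of 5 G1/S genes and 1 of 5 G1 genes highest of 7. Top2a was at 9.00 CPM (215 counts), beside 0.61 to 1.15 CPM in the other 6. Mki67 was at 7.33 CPM (175 counts), beside 0.38 to 1.62 CPM, and Kif11 at 3.35 CPM, beside 0.286 to 1.23 CPM. Ccnb1 was at 1.34 CPM, Ccnb2 at 2.14 CPM, and Cenpf at 1.47 CPM, where the other 6 reached at most 0.204, 0.954 and 0.409 CPM. Aurka, a spindle pole kinase, was the exception, with 2.68 CPM in a range of 1.30 to 3.31 CPM. The median ratio to the other female saline libraries was 2.71 for G2 and mitosis genes, 1.12 for S phase, 1.24 for G1/S and 0.883 for G1. Among 35 further mitosis genes the median ratio was 1.57, and 22 were highest of 7.

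The same library held transcripts of lymphocytes. The 8 listed lymphocyte markers summed to 36.4 CPM in female saline 1, to at most 3.39 CPM in the other female saline libraries and to at most 4.38 CPM anywhere else. Cd8a was at 18.1 CPM and Cd4 at 9.51 CPM, where the other 23 libraries reached at most 0.381 and 0.915 CPM. Among the B cell and natural killer genes of the list, Cd79a at 1.72 CPM lay within the other 23 libraries, 0.221 to 2.46 CPM. Ms4a1 at 0.377 CPM (9 counts) and Nkg7 at 0.251 CPM (6 counts) were little above their highest, 0.335 and 0.219 CPM. Genes looked up after these values were seen included Rag1 and Dntt, which rearrange and edit antigen receptor genes in immature lymphocytes. Rag1 was at 26.3 CPM, where the other 23 libraries reached at most 0.355 CPM, and Dntt at 15.3 CPM, where they reached at most 2.35 CPM. No marker of the list was at 0 throughout a group. Whether these cells carried the mitotic transcripts was not tested.

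**Figure D5:**
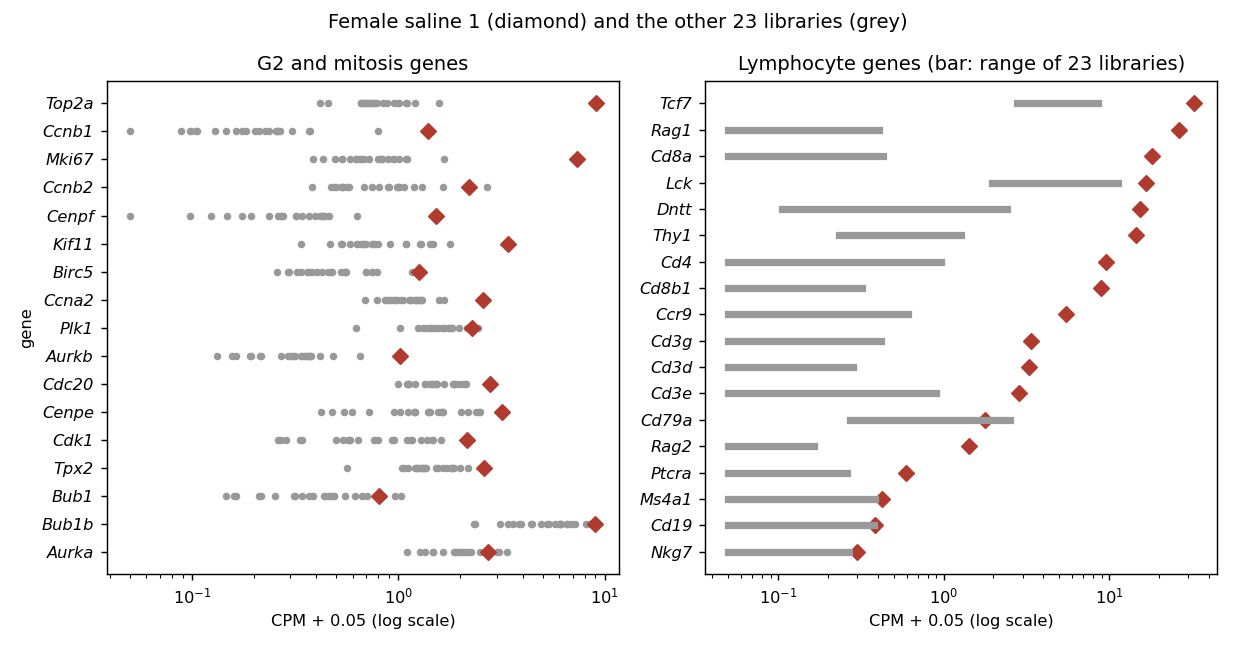
Left, 17 G2 and mitosis genes ordered by the gap between female saline 1 (diamonds) and the other female saline libraries, with the other 23 libraries as grey points. Right, lymphocyte genes in female saline 1, such as Rag1 at 26.3 CPM, beside the range of the other 23 libraries as bars, both in CPM + 0.05 on a log scale.

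Some member levels carry an uncertainty from annotation. Exons of Ccnd1, Ccnd2, Ccnd3, Cdk2, Cdk4, Cdk6, Mcm7, Ccna2, Ccne2, Cdc20 and Plk1 overlap exons of a gene on the opposite strand, and no source used here gives the strand setting of the counting. The overlap was 818 bases with Lto1 for Ccnd1, 361 bases with Bysl for Ccnd3, 641 bases with Tspan31 for Cdk4 and 34 bases with Pmel for Cdk2. These opposite genes had at most 1302 counts in any library for Ccnd1, 859 for Ccnd3, 1951 for Cdk4 and 52 for Cdk2. Ccnd1 itself had 228 counts in male cisplatin 5 and 343 in female saline 6. The opposite genes of Ccnd2 and Cdk6 had at most 9 and 3 counts in any library. Whether reads of opposite genes were counted for the members was not tested.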

How the data were processed

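Polyadenylated RNA from 24 inner medulla samples was sequenced. The authors deposited 1 table of raw read counts per Ensembl gene. Per the submitters' processing notes, the tools included Trim Galore 0.6.7, Subread 2.0.1, featureCounts and DESeq2 1.28.1, with mm10; aligner, strand setting and annotation release were not given in the sources used here. Sample columns of no known sample numbered 0. From the deposited counts, totals were 18084242 to 27279102 per library, which limits genes with few reads. Symbols were matched for 52083 of 55416 identifiers; no gene coordinates of the counts are printed, and lengths per kb came from a GENCODE vM21 annotation.

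One edgeR 4.0.16 fit (R 4.3.3) covered all 24 libraries with a mean per group, filterByExpr (minimum count 10), TMM scaling and quasi-likelihood tests. P-values were adjusted over the 18005 genes tested, and the threshold was 0.05. The fit was tested on simulated data. Scores used log2(CPM + 0.5). Alternatives were RLE size factors, DESeq2 1.42.0, no filter, each sex alone, a tubule marker covariate, a replicate block, libraries left out and, chosen after seeing the data, female saline 1 left out together with the covariate.

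Members named with values were those past the threshold in any contrast, the largest log2 fold change of each phase and sex, and the 6 largest gaps of female saline 1; of each pathway list, up to 5 genes past the threshold with the smallest p, and of each marker list the 2 of highest level. Other names complete a count of calls, a subunit pair or a marker set, and were chosen after their values were seen. The members and lists were chosen with earlier results of these data known. Same-numbered libraries did not deviate together (median r = -0.012 over 33 pairs, 6 of them over 0.1), so the numbers were not taken to pair them. No 2 libraries of a group agreed within sampling noise (lowest chi-square per gene 7.66 over 61 pairs). Lin54 and Ahsp of the lists were not analysed here. A single marker gene of the lists is not reported here by name.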

Additional observations from a re-analysis of the deposited data

Results flagged for a closer look

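A gap past Dixon's 95% critical value, between the highest or lowest library and the rest, flags about 1 in 20 sets of normally distributed values. That rate need not hold here, because the values were untransformed CPM, some from few counts, and genes shared libraries. Of 148 sets of values (37 genes in 4 groups), 18 had such a gap. Of these, 7 were high values in female saline 1, the library singled out for its score over these genes, and so restate that choice: Top2a at 9.00 CPM, Mki67 at 7.33, Kif11 at 3.35, Ccnb2 at 2.14, Cenpf at 1.47, Ccnb1 at 1.34 and Birc5, which encodes survivin, at 1.21 CPM.

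The other 11 were spread over 7 libraries. In males, Cdk4 was high in male cisplatin 5 at 149 CPM (others 82.6 to 105), Cdk6 was low in male cisplatin 6 at 24.7 CPM (others 39.4 to 45.3), and Cdc20 was high in male saline 1 at 2.04 CPM. Mcm4 was low in male saline 4 at 32.1 CPM, Mcm3 was low in male saline 6 at 7.87 CPM, and Birc5 was high in male saline 6 at 0.734 CPM. In females given cisplatin, Mcm2 was low in library 1 at 20.9 CPM, where Kif11 at 1.38 CPM and Birc5 at 0.647 CPM were high. Bub1 at 0.977 CPM and Bub1b at 8.44 CPM were both high in female cisplatin 2.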

How the results depend on the processing

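The number of members called in males, 7, moved to 3 with no filter on low counts, 4 with each sex fitted alone, 1 with the tubule marker covariate, 3 without male cisplatin 5, female saline 1 and female saline 6, and 1 with female saline 1 left out and the covariate, a fit chosen after seeing the data. In the mean of the sexes, 9 moved to 5 without those 3 libraries and to 4 without female saline 1 with the covariate. Leaving out each library in turn gave 1 to 11 calls in males, 6 to 12 in the mean of the sexes and 0 to 0 in the other 4 comparisons. With the replicate number as a block, 5 members were called in males, 0 in females and 6 in the mean of the sexes; the block ended the calls of Mcm3 and Ccnd3 in males and of Ccnd3, Ccne1 and Kif11 in the mean. The cause of these changes was not tested.

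Over all genes, the 3731 calls in males became 2402 with each sex alone, 2286 with the covariate and 1964 with female saline 1 left out as well, and 2554 to 5268 on leaving out 1 library. The 49 calls in females became 237 by DESeq2, 85 with no filter, 20 with each sex alone, 24 with the covariate, 16 with the block, 32 without 3 libraries, 18 with female saline 1 left out and the covariate, and 21 to 139 on leaving out 1 library. The 4881 calls in the mean became 2570 in that last fit. Female against male calls under saline, 34, became 54 by DESeq2, 57 with the covariate and 53 without female saline 1 as well; under cisplatin, 28 became 119, 61 and 54. Leaving out 1 library gave 21 to 41 and 12 to 120. At this depth 3 mitosis genes did not pass the filter of the edgeR fit. DESeq2 and the fit with no filter tested them, and DESeq2 called 1, Cenpf, in the mean of the sexes, with female saline 1 included.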
